A study of Mus musculus with 67 samples.

Results

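The genes described here encode parts of the machinery that cuts and joins messenger RNA in the nucleus, the RNA helicases that unwind RNA, and the factors that cut the 3' end of a transcript before its poly(A) tail is added. The rule for members reads gene symbols and no measured value. The symbols start with Hnrnp, Srsf, Snrp, Sf3, Prpf, Rbm followed by a digit, Ddx, Dhx, Cpsf or Cstf, or equal Cdc5l, while Ddx3x, Ddx3y and Rbmx were left out. This gave 70 of the 3905 genes that the array names by a single symbol, measured by 95 of 4788 such probes.

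Each array held cerebral cortex RNA from 1 mouse of the C57BL/6 strain, and 67 mice were measured. Mice fed ad libitum (AL) were taken at about 1, 6, 16 and 24 months of age (17 to 44, 169 to 194, 472 to 499 and 673 to 743 days), and mice on caloric restriction (CR) at about 6, 16 and 24 months. CR mice had regular feed to 13 weeks of age, then 90% and 75% fortified feed for 1 week each, and 60% fortified feed until sacrifice. Males and females formed separate groups, which made 14 groups of 5 mice each except the CR males, of which there were 4 at 6 months and 3 at 24 months. Those 3 CR males were each 673 days old, while the AL males at 24 months were 714 to 743 days old. Comparisons of the diets at 24 months therefore mix diet with age in males. All values are z-scores. Within each array the authors set the mean of all 8448 spots to 0 and their standard deviation to 1, so that a z-score of 1 lies 1 standard deviation above the mean spot of that array. A difference in z-score is therefore in standard deviation units and cannot be turned into a fold change. The RNA came from a block of tissue, so fewer cells of a type and less RNA per cell cannot be told apart.

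Splicing removes introns from a new transcript in steps that the spliceosome carries out. Small nuclear ribonucleoproteins (Snrp genes encode proteins of these particles) and the Sf3 complex recognise the splice sites, the Prpf proteins and Cdc5l take part in assembling and activating the catalytic core, and helicases of the DEAH family drive its rearrangements. Hnrnp and Srsf proteins bind the transcript and influence which exons are kept. Cpsf and Cstf proteins take part in cutting the 3' end of the transcript before its poly(A) tail is added. Neurons are known for particularly extensive alternative splicing.

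The members covered most of the range of signal on the array. Their mean z-score over the 67 arrays had a median of -0.103, against -0.150 for all single-symbol genes, and ran from -1.73 (Sf3b4, a subunit of the SF3b complex) to 1.98 (Dhx37, a DEAH-box helicase known for its part in ribosome assembly). A z-score compares the signal of different spots and not amounts of mRNA, since spots differ in the length and binding of the printed cDNA. Only features with a mean z-score above 0 over the arrays of a fit were tested, and 31 of the 70 members (44.3%) passed, against 42.4% of single-symbol genes. Just inside this limit lay Cpsf2 at 0.034, Rbm14 at 0.046 and Cdc5l at 0.047. Just outside it lay Rbm6 at -0.028 and Rbm18 at -0.034.

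The subfamilies differed in how many members passed. In the group of Prpf genes with Cdc5l, 8 of 9 members had a mean above 0, with a median of 0.619 and the highest value in Prpf19 (1.19), the ubiquitin ligase of the complex in which Cdc5l also sits. Prpf38a (-0.0990) was the member left out. No other subfamily passed as fully. Of 13 Rbm genes 8 passed, from Rbm47 at 1.69 down to Rbm22 at -1.11. Of 17 Ddx helicases only 3 passed (Ddx17 at 0.390, Ddx41 and Ddx58), and Ddx24 had the lowest mean. Of 5 Dhx helicases 3 passed, namely Dhx37, Dhx8, which acts late in splicing to release the spliced message, and Dhx36, with Dhx15 lowest at -0.931. Among 8 Hnrnp genes 3 passed (Hnrnpll highest at 0.981, Hnrnpf lowest at -1.08). Srsf2 (0.858) and Srsf11 passed among 4 Srsf genes, where Srsf10 was lowest at -1.08. Snrpb2 (0.361) was the only one of 4 Snrp genes to pass, and Snrpc was lowest at -0.596. Sf3a2 (1.40) was likewise the only one of 5 Sf3 genes. Cstf3 (0.774) and Cpsf2 passed among 5 end-processing genes, and Cpsf6 was lowest at -0.655.

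**Figure D1:**
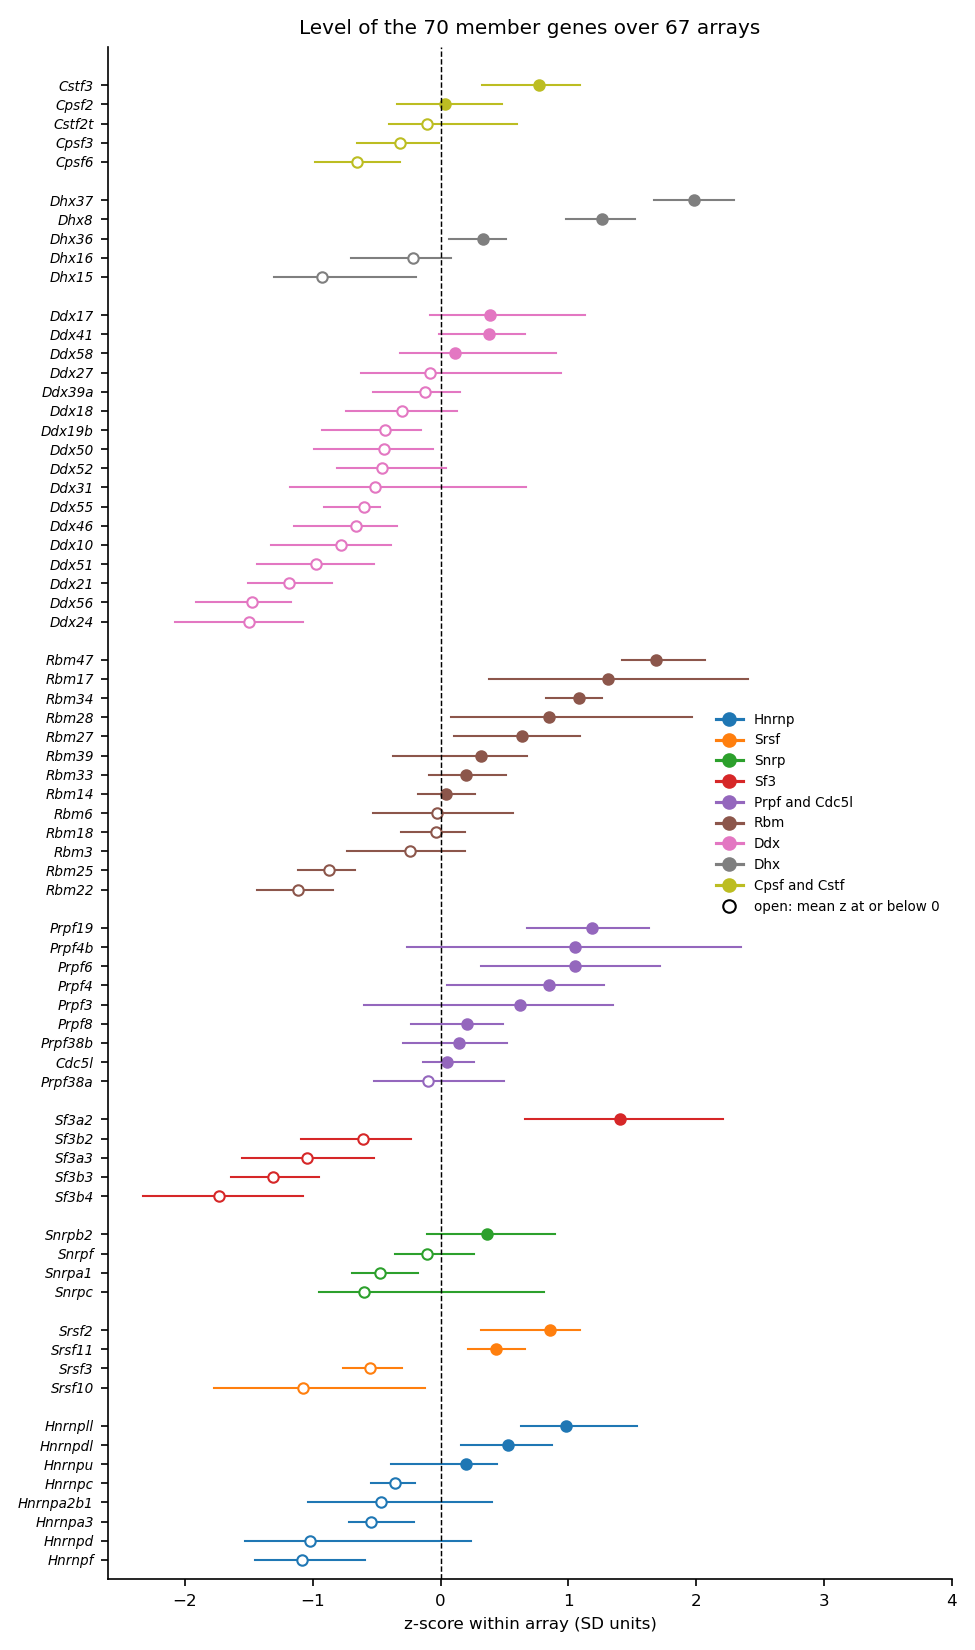
Mean z-score (circle) and lowest to highest z-score over the 67 arrays (line) of each of the 70 members, grouped and coloured by subfamily. The horizontal axis is the z-score in standard deviation units, filled circles mark the 31 members with a mean above 0 in adult mice, and the eye should find 8 of 9 filled circles in the Prpf group against 3 of 17 among the Ddx helicases.

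Probes of the same member often disagreed. This was computed for members only, so the values below cannot be set against those of other genes on the array. Of the 20 members with several probes, 10 had probes on both sides of 0, and the median range between the lowest and highest probe mean of a gene was 0.828. The residuals of paired probes, after group and array set were removed, had a median correlation over arrays of -0.001 in 30 pairs (from -0.445 to 0.813), and 6 pairs exceeded 0.3. The highest value belonged to a pair of Srsf10 probes. The widest gaps were those of Snrpc, with probe means of -2.42 and 1.22, of Snrpb2, from -0.976 to 1.96, and of Rbm25, from -2.12 to 0.656. The probes of Cdc5l, a cell cycle and splicing factor, lay at -1.12 and 1.21, so its gene mean near 0 describes neither of them. Gene values below are means of all probes, and probe values are given where they differ.

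The arrays carry running numbers from 1 to 67, and values of many spots shifted between numbers 45 and 46. Both sets of arrays (45 and 22) hold mice of all 14 groups. Among the 31 members tested, 22 (71.0%) differed between the sets at an adjusted p under 0.05 in the limma fit, against 71.6% of all features, 14 of them higher and 8 lower in arrays 46 to 67. The widest shifts were -1.19 ± 0.0484 (SE) for Prpf3, 1.10 ± 0.0889 for Prpf4b, a kinase of the spliceosome, 0.844 ± 0.0700 for Rbm17 and 0.803 ± 0.0597 for Sf3a2. Rbm34 (-0.00269 ± 0.0284) and Srsf11 (-0.0198 ± 0.0288) lay nearest to 0. The 4 widest shifts exceed every difference between ages or diets given below, and the set entered every fit as a covariate. The shift was not even over the array. Grouping spots by the remainder of their number after division by 22 gave 22 classes of 384 spots, whose mean shifts ran from -1.002 to 0.472. Across the 95 member probes, which lie in 21 of these classes, the probe's own shift correlated with the mean shift of its class at r = 0.574, a description over probes that share arrays. The standard deviation of the shift over member probes was 0.348, and 0.285 once the class mean was taken off.

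**Figure D2:**
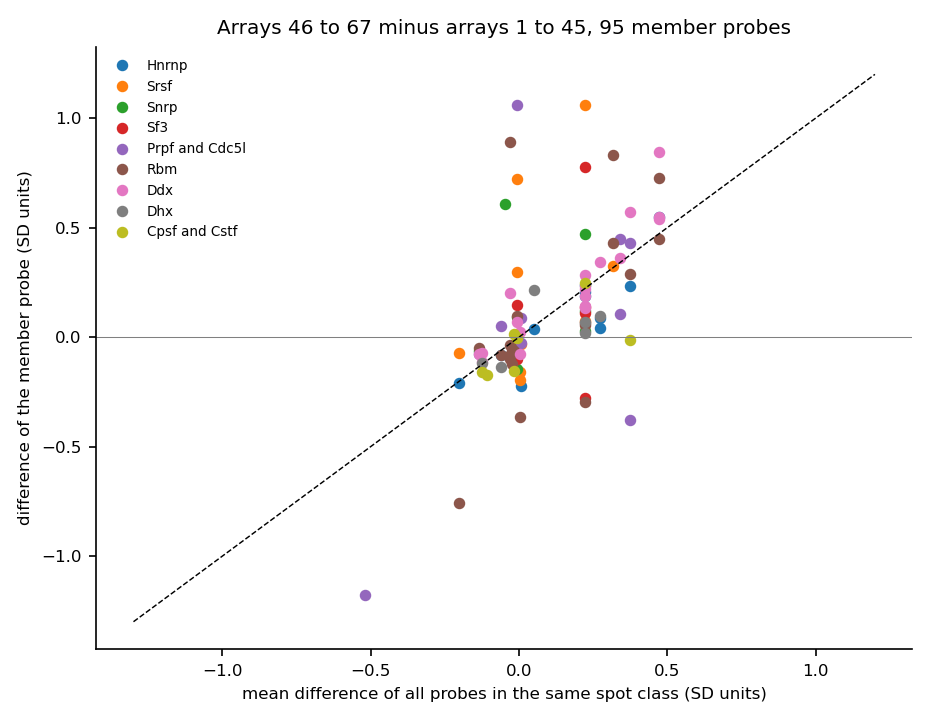
Shift in mean z-score from arrays 1 to 45 to arrays 46 to 67. Each point is 1 of the 95 member probes, with its own shift on the vertical axis and the mean shift of its spot class on the horizontal axis, both in standard deviation units. Colours mark subfamilies, the dashed line marks equal values, and 58 probes lie above 0 and 37 below.

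Other facts of the series bear on the values below. The last array, of the fifth AL female at 24 months, had a median correlation of 0.783 with the other arrays, where the next lowest array had 0.885. An AL male at 24 months (replicate 2) has a free-text description of a young mouse that goes against its title. For the members whose unadjusted p lay under 0.05, values without these arrays are given where leaving the array out moved the 95% interval across 0. Of 15 neuronal markers 4 were on the array and tested, with mean z-scores from 0.983 to 1.22. Astrocyte markers ran from 0.160 (Glul) to 1.60 (Aldoc) and those of dividing cells from 0.287 (Top2a) to 1.05 (Mki67). Car2 of oligodendrocytes lay at 1.53 and Pecam1 of endothelium at 1.63, so these levels do not tell cell types apart. Markers of microglia and striatum were not on the array, and those of other cells were sparse (3 astrocyte markers, 1 of oligodendrocytes, 1 of endothelium, 5 of dividing cells tested).

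In none of the comparisons did a member pass. With limma and Benjamini-Hochberg adjustment over all 3610 features tested (3600 for 1 against 6 months), 0 of 31 members had an adjusted p under 0.05, and the same held for 0% of all features in each of the 9 comparisons and 3 interactions. No member can therefore be said to have risen or fallen, and the values that follow are differences that did not pass. The median half-width of a member's 95% interval was 0.118 for 16 against 24 months and 0.127 for CR against AL at 24 months, so differences of the size seen below are near the limit of what these numbers of mice resolve.

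The comparison of AL mice at 16 and 24 months asks what changes in the last part of life. Here 4 of 31 members had an unadjusted p under 0.05, against 14.6% of all features. Rbm17 was the 1 member higher (5.29% of features were) and Dhx37, Cdc5l and Srsf2 were the 3 lower (9.31% of features were), so the members' shares of 3.23% and 9.68% lay near the background. Over all 31 members 13 differences were above 0 and 18 below, with a median of -0.021, against -0.019 over all features. The sign was the same in both array sets for 22 of 31 members (71.0%), against 64.0% of features, and in both sexes for 20 (64.5%), against 67.0%.

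Dhx37 had z-scores from 1.81 to 2.16 with a median of 1.995 in the 10 AL mice at 16 months, and from 1.67 to 2.05 with a median of 1.86 in the 10 at 24 months. The groups overlapped over most of their range, and the lowest value of all was that of the last array. The fitted difference was -0.132 ± 0.0557 (SE; 95% interval -0.244 to -0.0204, adjusted p = 0.286 with limma), with -0.138 in males and -0.126 in females. Without the last array it was -0.0984, and the interval of -0.208 to 0.0110 included 0.

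Cdc5l ran from -0.065 to 0.25 (median 0.0875) at 16 months and from -0.14 to 0.15 (median -0.05) at 24 months, again with overlap. Its difference was -0.107 ± 0.0475 (95% interval -0.203 to -0.0124, adjusted p = 0.296 with limma). By probe, the brighter spot differed by -0.138 (95% interval -0.247 to -0.0294) and the dimmer by -0.077 (-0.217 to 0.0629). Without the last array the gene's interval ran from -0.194 to 0.00149. Without the third AL male at 16 months the difference was -0.0837, with an interval of -0.179 to 0.0115. The interval included 0 in 6 of the 57 fits that left out 1 array. Cdc5l belongs to the same complex as Prpf19, whose own difference in this interval lay close to 0.

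Srsf2, an SR protein that promotes the use of exons, ran from 0.78 to 1.01 (median 0.90) at 16 months and from 0.32 to 1.03 (median 0.835) at 24 months. The group at 24 months spread more widely, its SD being 0.229 against 0.0735, and it held both the lowest and the highest values. The difference was -0.148 ± 0.0694 (95% interval -0.287 to -0.00888, adjusted p = 0.310 with limma). Leaving out the AL male at 24 months with the lowest value (replicate 1) gave -0.0873 with an interval of -0.216 to 0.0411, and leaving out the last array gave -0.137 with an interval of -0.280 to 0.00651.

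Rbm17, a splicing factor that acts at the 3' splice site, ran from 0.38 to 2.01 (median 1.23) at 16 months and from 0.83 to 2.41 (median 1.455) at 24 months. These ranges mix the array sets, which differ by more than the ages for this gene. Within arrays 1 to 45 the difference was 0.333, within arrays 46 to 67 it was 0.190, and in the joint fit it was 0.276 ± 0.111 (95% interval 0.0532 to 0.499, adjusted p = 0.277 with limma). Without the array set in the fit the standard error was 0.227 and the interval ran from -0.181 to 0.733. Without the first AL male at 16 months the difference was 0.206 (-0.0125 to 0.425), and without the last array, whose value of 2.41 was the highest of all, it was 0.235 (0.00966 to 0.460).

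**Figure D3:**
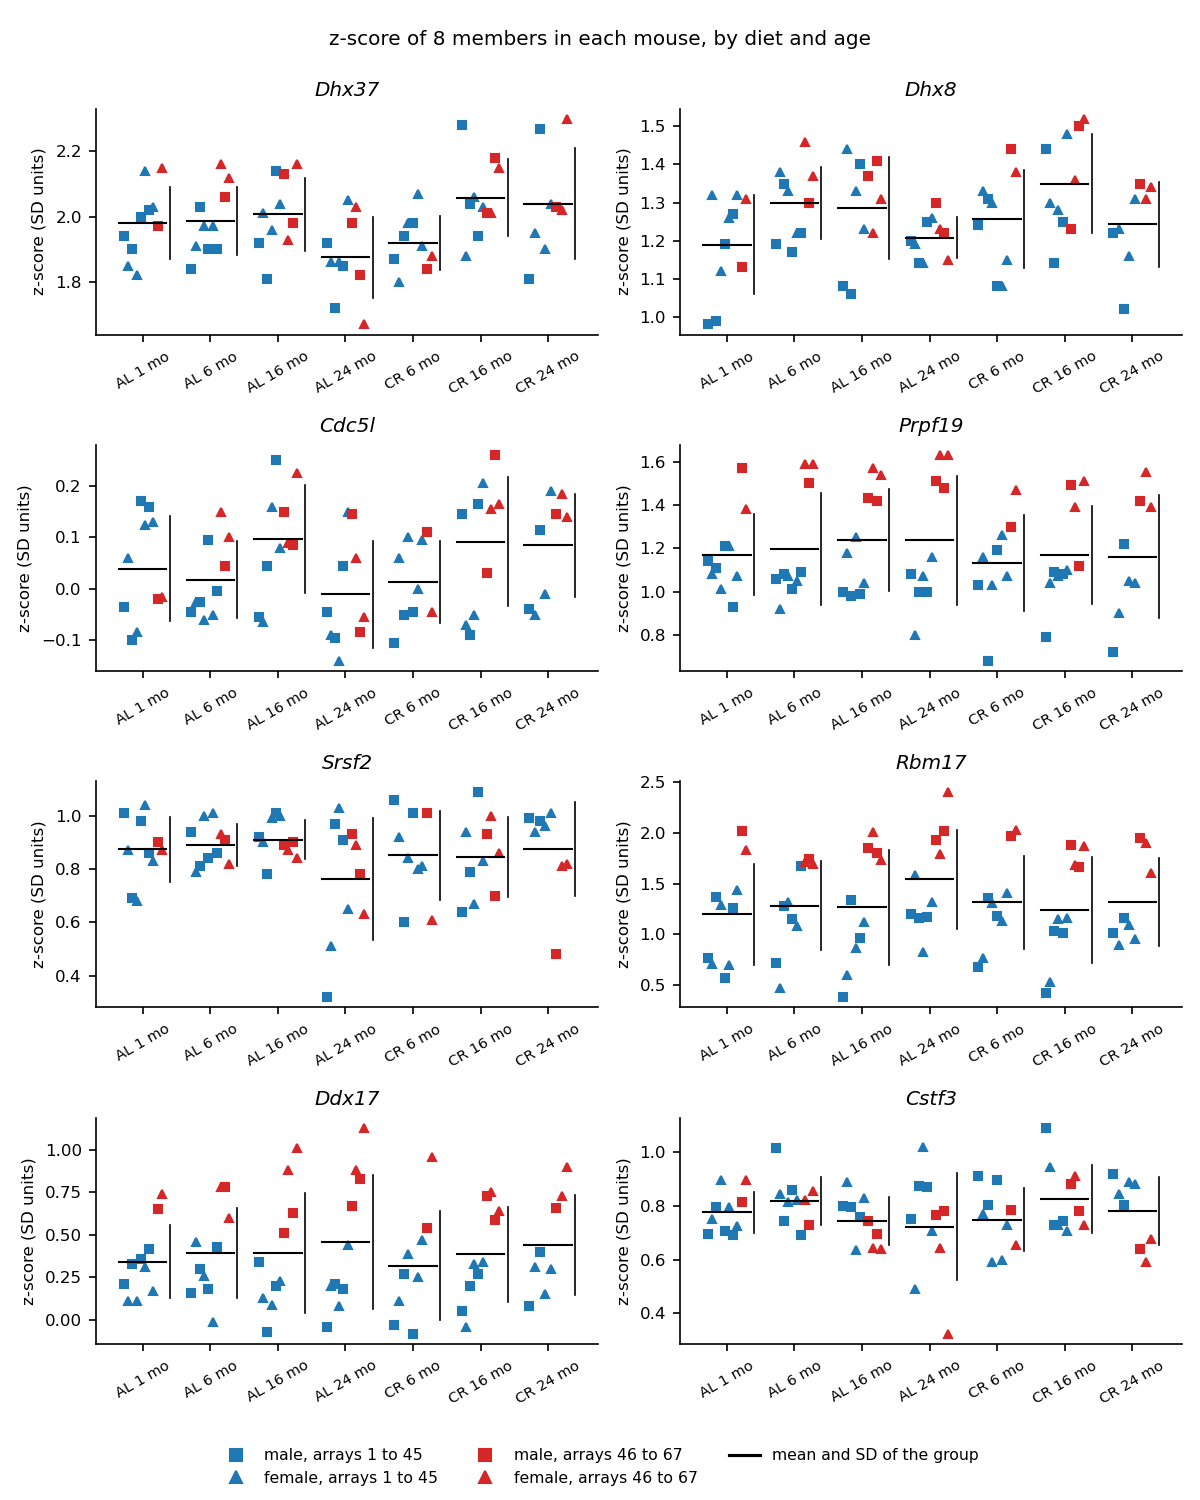
z-score (vertical axis, standard deviation units) of 8 members in each of the 67 mice, by diet and age in months (horizontal axis). Squares are males and triangles females, blue marks arrays 1 to 45 and red arrays 46 to 67, and the black lines give the mean and SD of each group. All groups overlap, and for Rbm17, Ddx17 and Prpf19 the red points lie above most blue ones in every group.

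Sequences upstream of a RefSeq start are shown for these 4 genes because they are the members of smallest p-value in the interval that held most such members. Each is the run of 250 bases before a RefSeq start, which need not be the outermost start of the gene. It is read 5' to 3' on the gene's strand from the RefSeq table of build GRCm38.p6. Capitals mark the letters searched for on both strands, which were the CCAAT box (CCAAT), the TATA box (TATAAA), the GC box (GGGCGG), the ETS core (CCGGAAG), the E-box (CACGTG) and the YY1 core (AAGATGG). The window of Dhx37 lies at chr5:125434049-125434298 on the minus strand, that of Cdc5l at chr17:45433708-45433957 (minus), that of Srsf2 at chr11:116853095-116853344 (minus) and that of Rbm17 at chr2:11603200-11603449 (minus). The Srsf2 window lies inside the outermost bounds of the gene (116849897 to 116853675). The Dhx37 window overlaps its gene, whose bounds end at 125434139, so neither window precedes the outermost start.
Dhx37: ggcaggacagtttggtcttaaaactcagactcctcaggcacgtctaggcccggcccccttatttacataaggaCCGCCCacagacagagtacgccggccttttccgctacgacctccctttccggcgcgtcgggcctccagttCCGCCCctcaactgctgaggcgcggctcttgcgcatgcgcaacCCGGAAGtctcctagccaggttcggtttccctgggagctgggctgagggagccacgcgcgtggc
Cdc5l: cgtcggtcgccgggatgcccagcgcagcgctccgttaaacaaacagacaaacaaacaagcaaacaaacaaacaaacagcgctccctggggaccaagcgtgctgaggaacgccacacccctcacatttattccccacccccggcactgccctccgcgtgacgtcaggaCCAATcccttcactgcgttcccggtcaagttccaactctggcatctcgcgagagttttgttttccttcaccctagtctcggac
Srsf2: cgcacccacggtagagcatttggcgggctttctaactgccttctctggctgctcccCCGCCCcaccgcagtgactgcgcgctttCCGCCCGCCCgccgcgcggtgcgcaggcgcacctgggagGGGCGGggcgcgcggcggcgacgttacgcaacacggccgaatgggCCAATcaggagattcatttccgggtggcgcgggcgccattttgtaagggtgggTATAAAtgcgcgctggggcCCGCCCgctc
Rbm17: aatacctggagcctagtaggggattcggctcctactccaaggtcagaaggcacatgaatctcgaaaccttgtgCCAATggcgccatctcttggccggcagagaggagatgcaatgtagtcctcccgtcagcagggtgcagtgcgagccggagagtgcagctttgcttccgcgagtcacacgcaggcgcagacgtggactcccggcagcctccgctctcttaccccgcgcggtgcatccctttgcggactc

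The GC content of the 4 windows was 63.6% for Dhx37, 57.2% for Cdc5l, 69.6% for Srsf2 and 60.8% for Rbm17. Dhx37 held 2 GC boxes and 1 ETS core, Cdc5l and Rbm17 1 CCAAT box each, and Srsf2 5 GC boxes, 1 CCAAT box and 1 TATA box. RefSeq rows were found for 64 of the 70 members, in 78 windows, because some genes have several starts. The ETS core stood in 32.1% of member windows, against 14.5% of the 4046 windows of single-symbol genes on the array and 6.91% of all 32851 windows. The CCAAT box stood in 43.6%, against 36.3% on the array and 33.8% of all. The GC box stood in 51.3% of member windows, above the 32.7% of all windows and below the 58.1% on the array. The TATA box was found in 8.97% (7.14% on the array, 12.4% of all), the E-box in 5.13% (8.21% and 6.02%) and the YY1 core in 0% (4.25% and 4.49%). The median GC content was 59.4% in member windows, 60.0% on the array and 52.4% over all. These are counts of letters and say nothing of binding.

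CR against AL at 24 months asks whether old restricted mice differ from old mice fed freely. In males the diets also differed in age (673 days in CR, 714 to 743 days in AL), and diet and age cannot be told apart there. Dhx37 was the 1 member of 31 with an unadjusted p under 0.05, where 10.5% of all features were. Its z-score ran from 1.81 to 2.30 (median 2.025) in the 8 CR mice, and from 1.67 to 2.05 in the 10 AL mice named above. The groups overlapped between 1.81 and 2.05. The difference was 0.165 ± 0.0602 (95% interval 0.0447 to 0.286, adjusted p = 0.297 with limma), with 0.125 in arrays 1 to 45 and 0.220 in arrays 46 to 67. It was 0.132 (0.0147 to 0.250) without the last array, 0.151 (0.0266 to 0.275) without the AL male of doubtful description, and 0.102 without CR male replicate 2, where the interval of -0.0226 to 0.226 included 0. Cdc5l followed with 0.0958 ± 0.0513, and its brighter probe differed by 0.158 (95% interval 0.0403 to 0.275). Its dimmer probe had means of -1.12 (SD 0.170) in CR and -1.16 (SD 0.163) in AL mice. Rbm33, Cpsf2, the polyadenylation factor subunit, and Srsf11 were next, with differences of 0.104, 0.103 and 0.0827. Over the 31 members 20 differences were above 0 and 11 below (median 0.0321, against 0.0163 over all features).

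By subfamily, differences from 16 to 24 months in AL mice were below 0 for 3 of 3 Dhx helicases, 2 of 2 Srsf genes, 2 of 2 end-processing genes, 5 of 8 Prpf genes with Cdc5l, 4 of 8 Rbm genes, 1 of 3 Ddx helicases and 1 of 3 Hnrnp genes, and above 0 for the only Sf3 and the only Snrp gene tested, where 2103 of all 3610 features were below 0. In CR against AL mice at 24 months they were above 0 for 3 of 3 Dhx, 2 of 2 Srsf, 2 of 2 end-processing, 4 of 8 Prpf, 5 of 8 Rbm, 2 of 3 Ddx and 1 of 3 Hnrnp genes and for the Sf3 gene, and below 0 for the Snrp gene, where 2043 of all features were above 0. Both contrasts use the AL mice at 24 months, so opposite signs in them are not independent and no joint count is read. Most of the intervals drawn include 0.

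**Figure D4:**
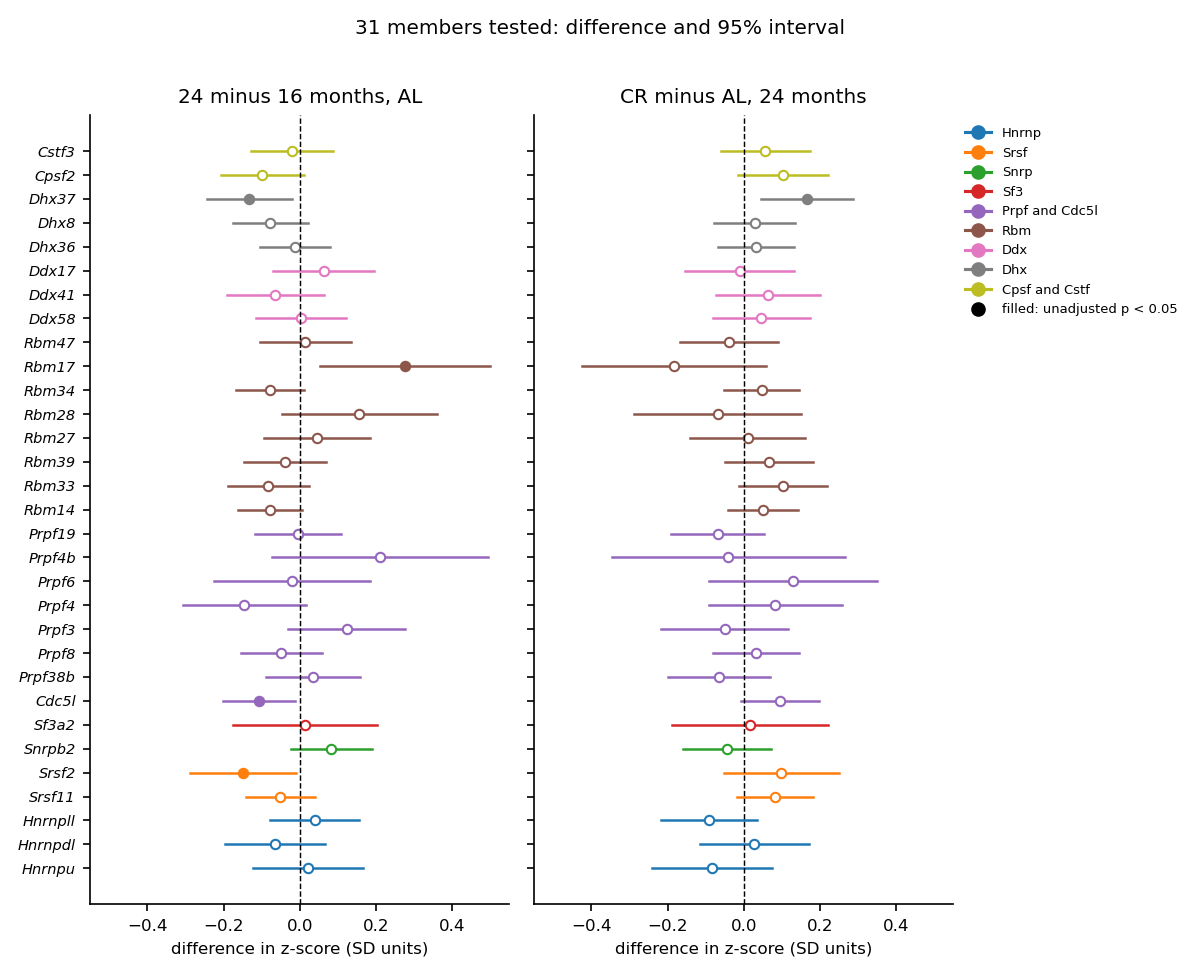
Difference in z-score (horizontal axis, standard deviation units) with its 95% interval for the 31 members tested, at 24 against 16 months in AL mice (left) and in CR against AL mice at 24 months (right). Colours mark subfamilies and filled points an unadjusted p under 0.05, which 4 members had on the left and 1 on the right.

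From 6 to 24 months in AL mice, 2 of 31 members had an unadjusted p under 0.05 (7.98% of all features). None was higher (1.86% of features) and both were lower (6.12%). Dhx37 ran from 1.84 to 2.16 (median 1.97) at 6 months and its difference was -0.116 ± 0.0558 (95% interval -0.228 to -0.00402, adjusted p = 0.600 with limma). Dhx8 ran from 1.17 to 1.46 (median 1.315) at 6 months and from 1.14 to 1.30 (median 1.21) at 24 months, with a difference of -0.100 ± 0.0496 (95% interval -0.200 to -0.00118, adjusted p = 0.615 with limma). Both helicases overlapped between the ages, and without the last array their intervals ran from -0.193 to 0.0254 and from -0.189 to 0.0133. Both intervals also included 0 without the AL male of doubtful description. Srsf2 (-0.125), Cpsf2 (-0.108) and Cstf3 (-0.0875), a subunit of the cleavage stimulation factor, followed without reaching that level. From 6 to 16 months in AL mice, 0 of 31 members had an unadjusted p under 0.05 (2.71% of features). Prpf8, the scaffold at the catalytic core of the spliceosome, had the smallest p-value, from a median of 0.180 at 6 months to 0.265 at 16 months (difference 0.0976 ± 0.0528, 95% interval -0.00813 to 0.203). Cdc5l (0.0705), Snrpb2 (-0.0719), Cstf3 (-0.0665) and Rbm33 (0.0646) were next.

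In CR mice from 6 to 24 months 0 of 31 members had an unadjusted p under 0.05, where 3.74% of features did. Prpf38b ran from -0.05 to 0.52 (median 0.220) in 9 mice at 6 months and from -0.05 to 0.23 (median 0.090) in 8 at 24 months, a difference of -0.136 ± 0.0686 (95% interval -0.273 to 0.0015). Dhx37 differed by 0.113 ± 0.0620, Rbm33 by 0.100, Prpf6 by 0.178 and Hnrnpu by -0.122. The AL and CR intervals from 6 to 24 months share no mice. In males the CR interval ended at 673 days of age and the AL interval at 714 to 743 days. The members' differences had the same sign on both diets in 14 of 31 (45.2%), against 39.7% of all features, and correlated across genes at r = -0.254, against -0.293 over all features, as a description over genes that share arrays. Dhx37 was among the members of opposite sign.

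**Figure D5:**
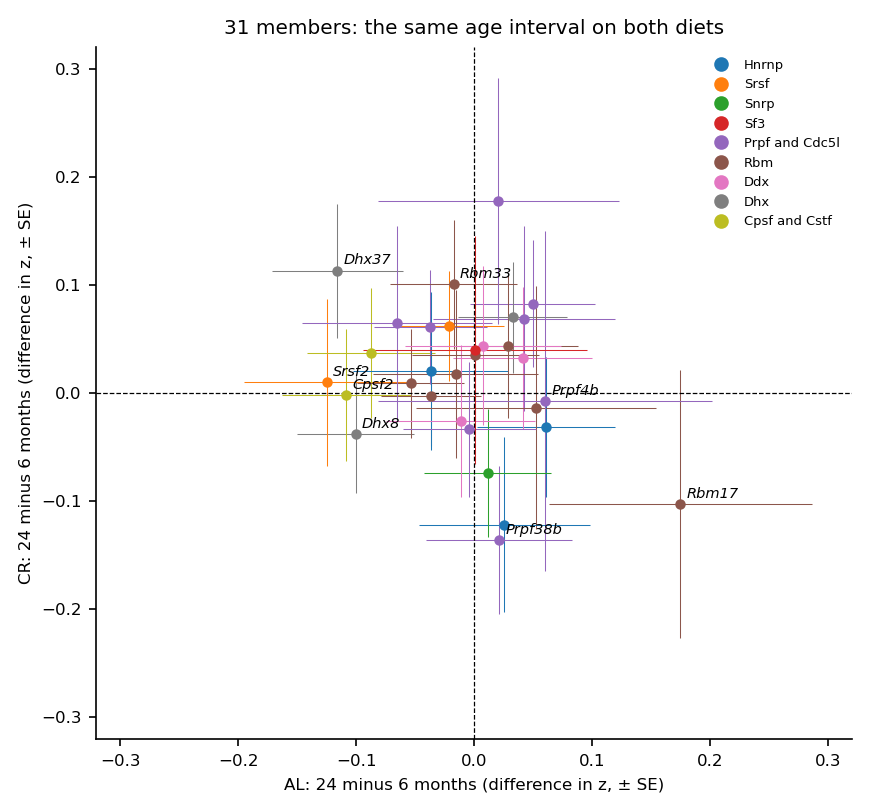
Difference in z-score between 24 and 6 months of age in AL mice (horizontal axis) and in CR mice (vertical axis) for the 31 members tested, with bars of 1 SE and colours for subfamilies. Points in the upper left and lower right differ in sign between the diets, and 14 of 31 members share a sign.

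The remaining contrasts held few members of small p-value. From 1 to 6 months in AL mice it was 1 of 31 (3.47% of features): Dhx8 ran from 0.98 to 1.32 (median 1.225) at 1 month, below its median at 6 months, with overlap, and differed by 0.104 ± 0.0486 (95% interval 0.00619 to 0.202, adjusted p = 0.999 with limma). The Dhx8 interval included 0 in 7 of the 40 fits that left out 1 array. Without the second AL female at 1 month it ran from -0.0122 to 0.188. Prpf8 (-0.0830), Rbm33 (-0.0637), Prpf38b (0.0780) and Hnrnpu (-0.0722) followed. In CR against AL mice it was 0 of 31 at 6 months (3.82% of features) and 0 of 31 at 16 months (1.33%). At 6 months the smallest p-values belonged to Prpf38b (0.0913), Cstf3 (-0.0678), Ddx41 (0.0776), Dhx37 (-0.0639) and Prpf3 (-0.0772). At 16 months they belonged to Cstf3 (0.0810), Rbm14 (-0.0580), Dhx8 (0.0650), Prpf19 (-0.0720) and Snrpb2 (0.0553).

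Between females and males among the adult mice, 3 of 31 members had an unadjusted p under 0.05 (8.01% of features), 2 of them higher in females (4.52%) and 1 lower (3.49%). Ddx17, a DEAD-box helicase that acts in transcription and splicing, ran from -0.04 to 1.13 (median 0.365) in 30 females and from -0.08 to 0.83 (median 0.270) in 27 males. The sexes overlapped almost fully, but these ranges mix the array sets. Within arrays 46 to 67 Ddx17 ran from 0.60 to 1.13 in females and from 0.51 to 0.83 in males. Within arrays 1 to 45 it ran from -0.04 to 0.47 in females and from -0.08 to 0.43 in males. Its difference was 0.107 ± 0.0395 (95% interval 0.0280 to 0.186, adjusted p = 0.518 with limma), with 0.0646 in arrays 1 to 45 and 0.192 in arrays 46 to 67. Without the array set in the fit its interval ran from -0.0483 to 0.303. Prpf19 ran from 0.80 to 1.63 (median 1.16) in females and from 0.68 to 1.51 (median 1.08) in males. Within arrays 46 to 67 it ran from 1.39 to 1.63 in females and from 1.12 to 1.51 in males. Within arrays 1 to 45 it ran from 0.80 to 1.26 in females and from 0.68 to 1.22 in males. The difference was 0.0864 ± 0.0338 (95% interval 0.0187 to 0.154, adjusted p = 0.524 with limma). The interval included 0 without the array set (-0.0377 to 0.242) or without the first CR male at 24 months (-0.000992 to 0.132). Cstf3 ran from 0.325 to 1.02 (median 0.730) in females and from 0.640 to 1.09 (median 0.785) in males (difference -0.0652 ± 0.0323, 95% interval -0.130 to -0.0005, adjusted p = 0.612 with limma), and its interval included 0 in 34 of the 57 fits that left out 1 array. Without the last array it ran from -0.117 to 0.00714, and without the AL male of doubtful description from -0.130 to 0.00192. Hnrnpll (-0.0671) and Dhx8 (0.0382) were next.

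Whether effects depended on each other was asked with interaction terms. For diet with age, 1 of 31 members had an unadjusted p under 0.05 (5.62% of features), which was Dhx37 (adjusted p = 0.855 with limma). Its medians were 1.97, 1.995 and 1.86 in AL mice and 1.91, 2.035 and 2.025 in CR mice at 6, 16 and 24 months. Leaving out 1 array gave 0 to 2 members at that level, and 0 without the last array. The term uses the same AL mice at 24 months as the Dhx37 differences above, so it is not a separate result. The age difference between CR and AL males at 24 months enters it too. For diet with sex 0 of 31 members had an unadjusted p under 0.05 (4.54% of features). For age with sex, which was asked among the AL groups only, it was 0 of 31 (5.82%).

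The 39 members with a mean z-score at or below 0 were looked at without the filter, and those named here were chosen after their values were seen. With all 7565 features in the fit, 11 of 70 members (15.7%) had an unadjusted p under 0.05 from 16 to 24 months in AL mice, against 13.0% of features, and 0 passed adjustment. The 7 that the filter had removed were Hnrnpa2b1 (0.162 ± 0.0593), Sf3a3 (0.287 ± 0.105), Ddx27 (0.146 ± 0.0643) and Ddx31 (0.167 ± 0.0737), which were higher, and Dhx16 (-0.163 ± 0.0605), Ddx10 (-0.155 ± 0.0666) and Ddx19b (-0.141 ± 0.0701), which were lower. In CR against AL mice at 24 months it was 6 of 70 (8.57%), against 11.3% of features, and those that the filter had removed were Dhx16 (0.173), Hnrnpc (0.0961), Ddx51 (-0.157), Hnrnpa2b1 (-0.137) and Ddx27 (-0.145). Hnrnpc, a core protein that coats new transcripts, had 3 probes. From 16 to 24 months the probe of mean 0.0509 differed by -0.182 (95% interval -0.295 to -0.0686), the probe of mean -0.0766 by -0.060 (-0.189 to 0.0692) and the probe of mean -1.04 by 0.015 (-0.0991 to 0.129).

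The members did not vary as a unit from mouse to mouse. After group and array set were removed, the 465 pairs of the 31 members had a median correlation of 0.0522 over the 67 arrays (5th to 95th percentile -0.436 to 0.558), against -0.00312 (-0.430 to 0.504) over all pairs of features. Pairs within a subfamily had a median of -0.000959 and pairs across subfamilies 0.0616. A correlation above 0.5 was found in 7.31% of member pairs and 5.12% of all pairs. The highest joined Prpf4b with Rbm17 (0.897), Prpf4b with Sf3a2 (0.892), Prpf4b with Rbm27 (0.875) and Rbm27 with Sf3a2 (0.862), members that also shifted strongly between the array sets. Prpf4 and Cdc5l correlated at 0.781, and the lowest value was that of Cstf3 with Sf3a2 (-0.714). These are descriptions over arrays that share their processing, without a test.

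Other genes of splicing and mRNA processing were read from a list. Of this list of 127, 51 were on the array and 17 were tested, with 0 past adjustment in any comparison. From 16 to 24 months in AL mice 4 of these differences were above 0 and 13 below (median -0.031), beside 2103 of 3610 features below 0, and in CR against AL mice at 24 months 11 were above and 6 below (median 0.0150), beside 2043 features above. Nono, a paraspeckle protein that binds RNA and DNA, differed by 0.151 ± 0.0555 from 16 to 24 months (95% interval 0.0398 to 0.262, adjusted p = 0.267 with limma), by 0.166 from 6 to 24 months and by -0.140 in CR against AL mice at 24 months. Fip1l1, a subunit of the cleavage and polyadenylation factor, differed by -0.135 ± 0.0606 from 16 to 24 months (95% interval -0.256 to -0.0135, adjusted p = 0.301 with limma). Pcf11, an end-processing factor, differed by 0.274 ± 0.0995 in CR against AL mice at 24 months (95% interval 0.0745 to 0.473, adjusted p = 0.297 with limma). Among markers, none passed adjustment. From 16 to 24 months in AL mice the 4 neuronal genes differed by -0.213 (Stmn3, 95% interval -0.368 to -0.0584), -0.125 (Snap25), -0.118 (Uchl1, -0.221 to -0.0153) and 0.004 (Tubb3), and the 3 astrocyte genes by 0.124 (Glul, 0.0124 to 0.236), -0.081 (Aldoc) and -0.007 (Cst3). From 6 to 24 months in AL mice the intervals of Stmn3 (-0.202, -0.356 to -0.0466) and Glul (0.160, 0.0478 to 0.271) left out 0. In CR against AL mice at 24 months, where Dhx37 had the smallest p-value, the same held for Stmn3 (0.186, 0.0192 to 0.353) and Glul (-0.147, -0.267 to -0.0260), while Snap25 (0.129), Uchl1 (0.0225), Tubb3 (-0.0414), Aldoc (0.00470) and Cst3 (-0.0689) had intervals that included 0. Between the sexes it held for Cst3 alone (0.0761, 0.0163 to 0.136). The markers of oligodendrocytes, endothelium and dividing cells had intervals that included 0 in these 4 comparisons. The part of cell composition in the members' differences was not tested.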

How the data were processed

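RNA from the cerebral cortex of 67 mice was copied into radioactively labelled cDNA, which was hybridised to cDNA filter arrays, 1 array per mouse. The deposited values are a score, the z-score that the authors computed within each array over its 8448 spots (mean 0, standard deviation 1, from -10.33 to 4.17 in all arrays). Whether intensities were put on a log scale first is not given in the sources used here. No replicate spots, counts or background values were used, and the number of mice limits the precision.

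The platform annotation gave a single symbol for 4788 probes, several for 212 and none for 3448. Probes of a single symbol were averaged per gene (3905 genes), and the other probes were kept singly, which made 7565 features. Features with a mean z-score above 0 over the arrays of a fit were tested. The study's methods also keep features of mean above 0, but over the groups compared. Groups came from the titles. A mean per group and the array set (running numbers 1 to 45 or 46 to 67) were fitted with limma (version 3.58.1, R 4.3.3), with sexes weighted equally, two-sided moderated tests and Benjamini-Hochberg adjustment over all features tested (threshold 0.05). The comparisons of adults used 57 arrays (12 groups), and that of 1 with 6 months the 40 AL arrays (8 groups). Interactions were tested by moderated F statistics. The fit was tested on simulated data. Figures were drawn with matplotlib 3.10.9 in Python 3.11.15.

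Members, gene lists and the array set as a covariate were chosen with earlier results of these data known. Named genes are, per comparison, the 5 members of smallest p-value, the highest and lowest member of each subfamily, Cdc5l, Hnrnpc and Cstf3, members whose probes differ in sign, and up to 4 other pathway genes. Alternatives changed the array set term, filter, normalization between arrays, array weights, variance prior, probe averaging and the Rbm genes, applied the study's own rule, or left out each array in turn. Promoter windows came from RefSeq (GRCm38.p6). Gene names were otherwise those of the platform annotation.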

Additional observations from a re-analysis of the deposited data

Results flagged for a closer look

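In 56 sets of 8 to 10 mice (8 members in the 7 combinations of diet and age), 2 mice stood apart from the others of their set, by a gap that chance gives in about 1 of 20 sets, so 2 of 56 is no more than chance gives. Srsf2 had a z-score of 0.48 in a CR male at 24 months (replicate 3), where the next lowest of the 8 mice had 0.81. Cstf3 had a z-score of 1.015 in an AL male at 6 months (replicate 1), where the next highest of the 10 mice had 0.86.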

How the results depend on the processing

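No member passed the adjusted threshold in any of the 9 comparisons and 3 interactions under any limma setting tried. The study's own rule (z-ratio past 1.5 with unadjusted p-values) gave 1 member, Dhx37, in CR against AL mice at 24 months and 0 in the other 8 comparisons, where it gave 2.11% of all features in that comparison and 0.359% to 2.86% in the others. Of the values recomputed for the named differences, 2962 kept their direction and 8 changed sign, all in differences that had not passed. Most of these fits left out 1 array, often one outside the groups compared, where the sign could hardly change. The named members were also picked by smallest p-value, so the kept directions are no test of the differences. Hnrnpu in CR mice from 6 to 24 months was 0.045 in arrays 46 to 67 alone and 0.000389 with array weights, and ranged from -0.189 to 0.00484 when 1 array was left out. Rbm33 in AL mice from 1 to 6 months was 0.055 in arrays 46 to 67 alone, and Dhx8 in females against males -0.015. In CR against AL mice at 6 months, Prpf3 was 0.012 without the array set term and 0.00958 in arrays 1 to 45 alone, where Dhx37 was 0.00125. The cause was not tested. Counts at an unadjusted p under 0.05 were less steady. The share of all features at that level is given above for the fit without the filter, and is not given for the other settings below. Those counts therefore do not show whether the members moved apart from the other features. From 16 to 24 months in AL mice the 4 members became 1 without the third AL male at 16 months, 2 without the second AL female at 16 months and 7 without the second AL female at 24 months, and ranged from 1 to 11 over the other settings, the highest without the filter, which tests 70 members. The 3 members of the sex comparison ranged from 1, without the first CR male at 24 months, to 4, and were 0 without the array set term or in arrays 1 to 45 alone. In CR against AL mice at 24 months the 1 member became 4 without the third AL female at 24 months and 6 without the filter or with probes taken singly. The labels give no replicate number, and the main fit has no term for pairs or rounds of mice. The running numbers fall into 5 rounds with at most 1 mouse of each group. With the round as a block in place of the array set, the members at an unadjusted p under 0.05 were 4 from 16 to 24 months and 1 from 6 to 24 months in AL mice, 2 in CR against AL mice at 24 months and 2 between the sexes. With both as blocks, chosen after seeing the data, they were 4, 4, 2 and 2, with Rbm17 at 0.276 ± 0.0870 from 16 to 24 months, and 2 of all features (no member) passed adjustment there. The filter over the groups compared, also chosen after seeing the data, left these counts at 4, 2, 1 and 3. Probes singly, that filter and sets of arrays alone were not run for the interactions.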
